A study of Mus musculus with 8 samples.

Results

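The cathepsins described here are the 10 genes Ctsa, Ctsb, Ctsc, Ctsd, Ctsf, Ctsh, Ctsk, Ctsl, Ctss and Ctsz, found by symbol among the 23469 genes of the table. All 10 had a mean of at least 1 TPM (a length-scaled share of all transcripts) over the libraries, the level required for testing, as did 8801 genes in all. Macrophages were sorted from the ascites of mice bearing ovarian tumours, and bulk RNA-seq compared cells of different origin. AeEM were tdTomato-negative cells, taken by the study as ascites-enriched macrophages of embryonic origin, and AeMM were tdTomato-positive cells, taken as monocyte-derived, with 4 libraries in each group. Both groups came from the same kind of animal: female C57BL/6 mice carrying Ms4a3-Cre with a Rosa-tdTomato reporter (Ms4a3TdT in the labels), with no drug treatment. The mice received ID8 cells, a mouse ovarian surface epithelial line, in the peritoneum at 4 to 5 weeks of age, and bloody ascites was taken 65 days later. Sorted cells were CD45+, Ly6G-, SiglecF-, Ly6C-, F4/80+ and CD11b+. Ms4a3-Cre marks the progeny of granulocyte-monocyte progenitors, so AeEM are defined by the absence of a label, and any unrecombined monocyte progeny would fall among them. The study names 4 mice for the 8 libraries, and nothing says which libraries shared a mouse, so p-values measure the spread between libraries.

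Cathepsins are proteases that work mainly in the acid interior of lysosomes and endosomes. Most are cysteine proteases of the papain family, made as inactive precursors, whereas Ctsd is an aspartic protease and Ctsa a serine carboxypeptidase. In macrophages they degrade engulfed and autophagic protein, trim antigens and the invariant chain for MHC class II, and can be secreted, where they cleave matrix. Cystatins and stefins inhibit the cysteine members.

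Values are log2(TPM + 1) as deposited, and each difference is AeEM minus AeMM on that scale. In the deposited values, 3 sets of libraries nearly match in their gene means: the pair numbered 1, the pair numbered 2, and the remaining 4 libraries. This was read from the values as an adjustment between sets made before deposit. Within replicate 1 and within replicate 2, the AeEM and AeMM libraries therefore deviate in mirror image, and the unpaired limma test does not count the freedom that this adjustment used. Each call is given beside a second limma fit that also estimates the 3 sets, called the set-adjusted fit. The number of reads behind each value is unknown, because the table holds no counts.

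The 10 genes together made up 0.93% ± 0.035 of all TPM in AeEM and 0.839% ± 0.014 in AeMM (SD, n = 4 each). Their summed level was 8739 to 9447 TPM in AeEM libraries and 7967 to 8167 TPM in AeMM libraries, so the groups did not overlap in the sum. Ctsd had the largest gap in mean TPM, at 2928 in AeEM and 2450 in AeMM, but its log2 difference was 0.06 after quantile normalization. The sum was not computed under other scalings. Ctsd, Ctsb and Ctss supplied most of it, with 72.9% ± 0.50 in AeEM and 73.9% ± 0.36 in AeMM.

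**Figure D1:**
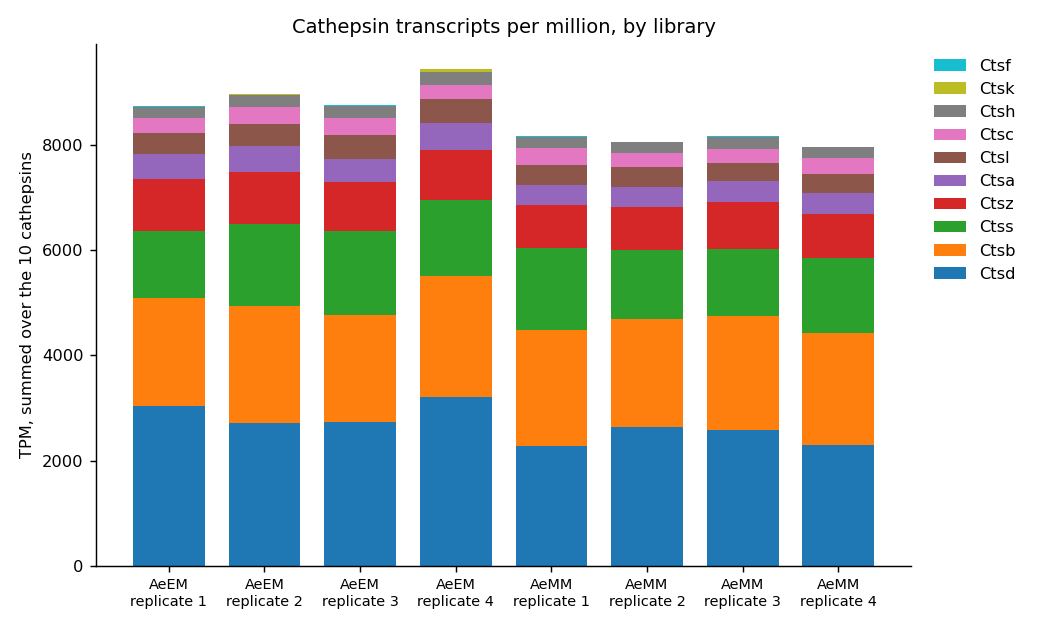
Stacked bars give the TPM of each cathepsin in each library, with the 4 AeEM libraries on the left and the 4 AeMM libraries on the right. The bars reach 8739 to 9447 TPM in AeEM and 7967 to 8167 TPM in AeMM, and Ctsd, Ctsb and Ctss form the lower part of each.

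Over all 8 libraries the genes fell into an order spanning from some of the most abundant messages of these cells to low ones. Ctsd, the aspartic protease, ranked 40th of the tested genes by mean TPM, and Ctsb, a cysteine protease that can cut within a chain or from its end, ranked 43rd. Their ranges overlapped (2273 to 3217 TPM for Ctsd, 2024 to 2298 TPM for Ctsb), although Ctsd was the higher in 8 of 8 libraries. Ctss followed at 1268 to 1591 TPM and Ctsz at 806 to 982 TPM, each clear of its neighbours. Ctsa (382 to 503 TPM) and Ctsl (345 to 456 TPM) overlapped, with Ctsa higher in 7 of 8 libraries. Ctsc lay at 268 to 323 TPM and Ctsh at 200 to 243 TPM. Ctsk (0.13 to 62.7 TPM) and Ctsf (6.36 to 16.6 TPM) were far lower and could not be ordered. Each of the 8 higher genes thus ranked within the first 274 of the genes tested, whereas Ctsk and Ctsf ranked 2951st and 3249th.

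Ctsa was the 1 member of the 10 that passed the test, and it was higher in AeEM. Over the table, 1.25% of the genes tested were called higher in AeEM and 1.16% lower (110 and 102 of 8801), 2.41% in all, and of the genes of at least 200 TPM 8.5% were called higher. Bulk values cannot separate a change in the number of cells of a type from a change in RNA per cell, here and in all that follows. Ctsa, also called protective protein, trims peptides from their carboxyl end and holds beta-galactosidase and neuraminidase 1 in a stable complex. Its log2 values were 8.89, 8.95, 8.82 and 8.98 in AeEM replicates 1 to 4, against 8.60, 8.58, 8.63 and 8.65 in AeMM replicates 1 to 4. Every AeEM library lay above every AeMM library, and the gap between the groups was 0.17. The means were 480 ± 22.8 TPM in AeEM and 390 ± 8.1 TPM in AeMM (SD, n = 4 each). The difference was 0.30 (SE 0.05), a fold of 1.23, with a limma adjusted p of 0.0259. The set-adjusted fit gave the same difference with an adjusted p of 0.271, so the call was lost, as it was for most genes: that fit called 0.159% of the table (14 genes). The pairs numbered 1 and 2 gave differences of 0.30 and 0.37, and the other 4 libraries gave 0.26. The exact two-sided permutation test over samples, with 70 possible assignments, gave p = 0.0286, the smallest it can give. The adjustment makes these assignments not exchangeable; over the 24 that keep each set balanced, the exact p was 0.0833, again the smallest possible, so that test cannot reach 0.05. Removing single libraries also moved the call: the limma adjusted p was 0.0211 when AeEM replicate 3 was left out and 0.0478 when AeMM replicate 3 was, but between 0.0509 and 0.1 when any other library was.

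Ctsa lies on mouse chromosome 2 (mm10, 164832873 to 164841032, plus strand). Its exons share 495 bases with those of Pltp on the opposite strand and 324 bases with those of Neurl2. The sources do not say that the counting used strand, so reads in shared bases cannot be assigned. Pltp, a phospholipid transfer protein, averaged 68.6 TPM and had log2 values of 6.48, 6.36, 5.93 and 6.85 in AeEM, against 5.57, 5.75, 5.88 and 5.58 in AeMM. Its difference was 0.71 (SE 0.18, limma adjusted p = 0.0747), also with no overlap between groups. Neurl2, at 7.9 TPM, differed by -0.43 (SE 0.24, limma adjusted p = 0.388), with overlapping groups. Their part in the Ctsa value was not tested.

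Ctsd, Ctsl and Ctsz also had every AeEM library above every AeMM library, but did not pass the test. With Ctsa, 4 of the 10 members were separated in this way, against 5.72% of all genes tested and 15.6% of the 294 genes of at least 200 TPM, a level chosen after the values were seen because the means of 8 members lie above it. An unadjusted limma p under 0.05 was reached by the same 4 members. Of all 8801 genes tested, 766 (8.7%) had such a p together with a higher level in AeEM. No member was separated in the opposite direction, which 6.53% of the genes tested were. Ctsd, which digests bulk protein in the lysosome, had log2 values of 11.57, 11.40, 11.42 and 11.65 in AeEM, against 11.15, 11.37, 11.34 and 11.17 in AeMM. Its lowest AeEM and highest AeMM values were 0.04 apart. The difference was 0.26 (SE 0.08, fold 1.19, limma adjusted p = 0.125, and 0.427 in the set-adjusted fit). The pairs numbered 1 and 2 gave 0.42 and 0.04, and the other 4 libraries 0.28. Its exons share 808 bases with those of Gm49369, an annotated gene on the same strand that is absent from the deposited values. The value depended on the scaling: after quantile normalization it was 0.06.

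Ctsl, an endopeptidase that cuts within chains, had log2 values of 8.69, 8.76, 8.82 and 8.84 in AeEM, against 8.61, 8.54, 8.43 and 8.56 in AeMM. The difference was 0.24 (SE 0.06, fold 1.18, limma adjusted p = 0.0782, and 0.419 in the set-adjusted fit). Its exons share 1742 bases with the antisense Gm47123 and 395 bases with the pseudogene Gm49230, both absent from the deposited values. Ctsz, a carboxypeptidase also known as cathepsin X, had 9.94, 9.94, 9.87 and 9.90 in AeEM, against 9.66, 9.69, 9.82 and 9.69 in AeMM. AeMM replicate 3 was the AeMM library nearest to AeEM. The difference was 0.20 (SE 0.05, fold 1.15, limma adjusted p = 0.0886, and 0.442 in the set-adjusted fit). The exact permutation p was 0.0286 for Ctsd, Ctsl and Ctsz alike, and 0.0833 over the assignments that keep the sets balanced, unadjusted for the 10 genes.

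**Figure D2:**
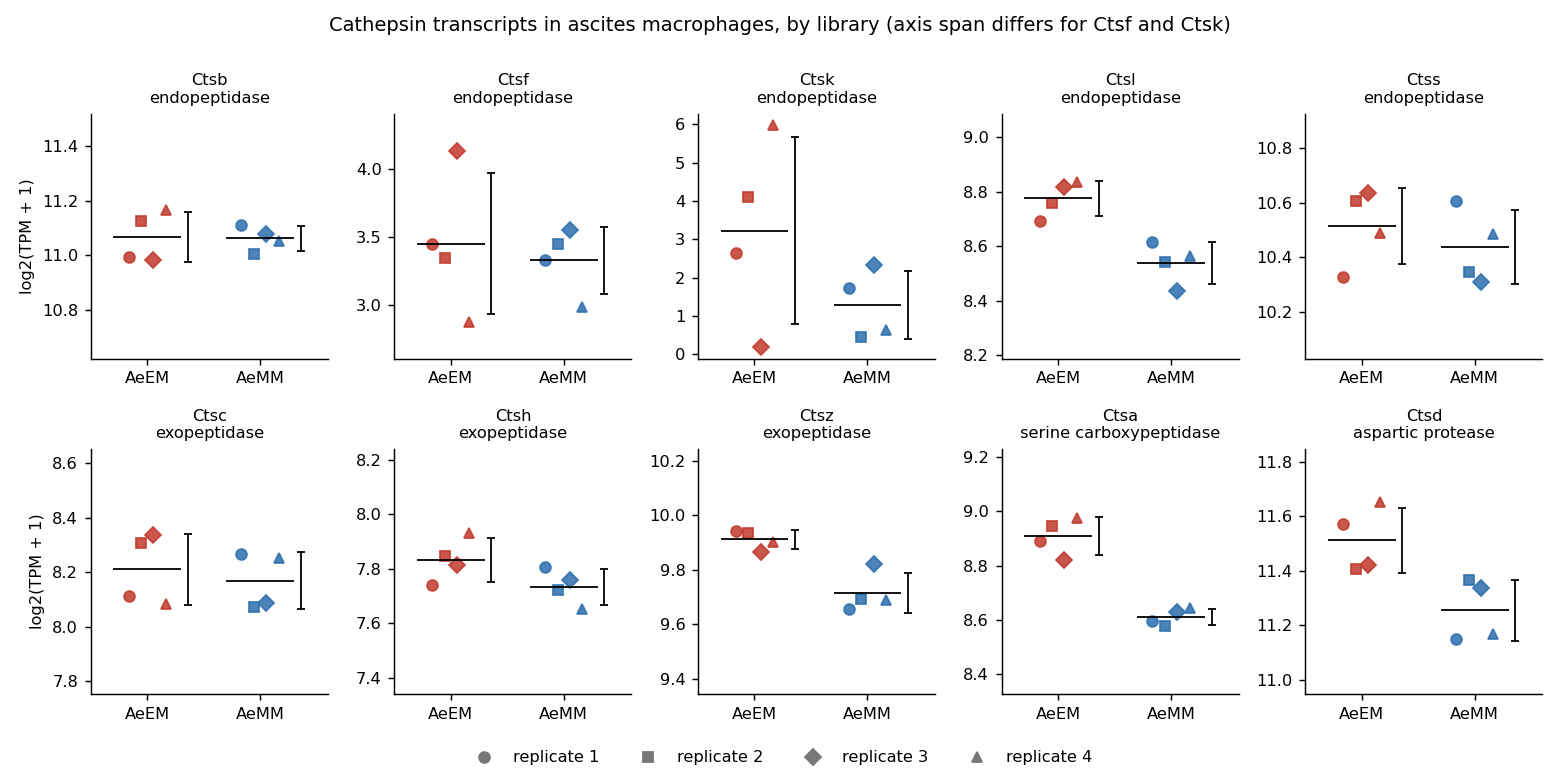
Each panel plots log2(TPM + 1) of a cathepsin, with AeEM on the left and AeMM on the right, a marker shape for each replicate number, a line at the mean and a bar of 1 SD (n = 4 each). Only in Ctsl, Ctsz, Ctsa and Ctsd do all AeEM points lie above all AeMM points, and Ctsk ranges from 0.18 to 5.99 within AeEM.

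The abundant endopeptidases Ctsb and Ctss overlapped between the groups. Ctsb had log2 values of 10.99, 11.13, 10.98 and 11.17 in AeEM, against 11.11, 11.00, 11.08 and 11.05 in AeMM. Its difference was 0.01, with a limma 95% interval of -0.12 to 0.13, and its sign turned to -0.11 after quantile normalization. The exons of Ctsb share 774 bases with those of Fdft1 on the opposite strand. Fdft1 averaged 0.86 TPM, under the level for testing, with every AeEM library above every AeMM library. Ctss, which cuts the invariant chain in antigen-presenting cells, had 10.33, 10.61, 10.64 and 10.49 in AeEM, against 10.61, 10.34, 10.31 and 10.48 in AeMM. Its difference was 0.08, with an interval of -0.12 to 0.28. The sign for Ctss differed between sets, at -0.28 for the pair numbered 1, 0.26 for the pair numbered 2 and 0.17 for the rest.

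The amino-terminal trimming enzymes Ctsc and Ctsh were likewise mixed. Ctsc, or dipeptidyl peptidase I, had log2 values of 8.11, 8.31, 8.34 and 8.08 in AeEM, against 8.26, 8.07, 8.09 and 8.25 in AeMM. Its difference was 0.04, with an interval of -0.14 to 0.23, and the pairs numbered 1 and 2 gave -0.15 and 0.24. Ctsh, an aminopeptidase, had 7.74, 7.85, 7.81 and 7.93 in AeEM, against 7.81, 7.72, 7.76 and 7.65 in AeMM. The difference was 0.10, with an interval of -0.04 to 0.24 and a limma adjusted p of 0.47.

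The low members varied most. Ctsk, best known as the collagen-degrading enzyme of osteoclasts, had log2 values of 2.65, 4.09, 0.18 and 5.99 in AeEM, against 1.72, 0.44, 2.32 and 0.63 in AeMM. AeEM held both the highest value of all, in replicate 4, and the lowest, in replicate 3. The difference was 1.95 (SE 1.07, limma adjusted p = 0.389, exact permutation p = 0.2, and 0.333 with the sets kept balanced), and leaving out AeEM replicate 4 or AeEM replicate 3 gave 1.03 or 2.97. Ctss, its neighbour 17423 bases away on the same strand of chromosome 3, did not share this spread. Ctsf, a further cysteine endopeptidase, had 3.45, 3.35, 4.14 and 2.88 in AeEM, against 3.33, 3.45, 3.55 and 2.99 in AeMM. Its difference was 0.12 (SE 0.25), and it was -0.11 without AeEM replicate 3.

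All 10 differences were above 0 in the unpaired fit, against 48.8% of the genes tested and 47.6% of those of at least 200 TPM. The sign for Ctsb turned under quantile normalization and without mitochondrial and ribosomal genes. The median difference of the 10 genes was 0.16, beside -0.01 over all genes tested. Members of the family share libraries and are not replicates of each other.

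**Figure D3:**
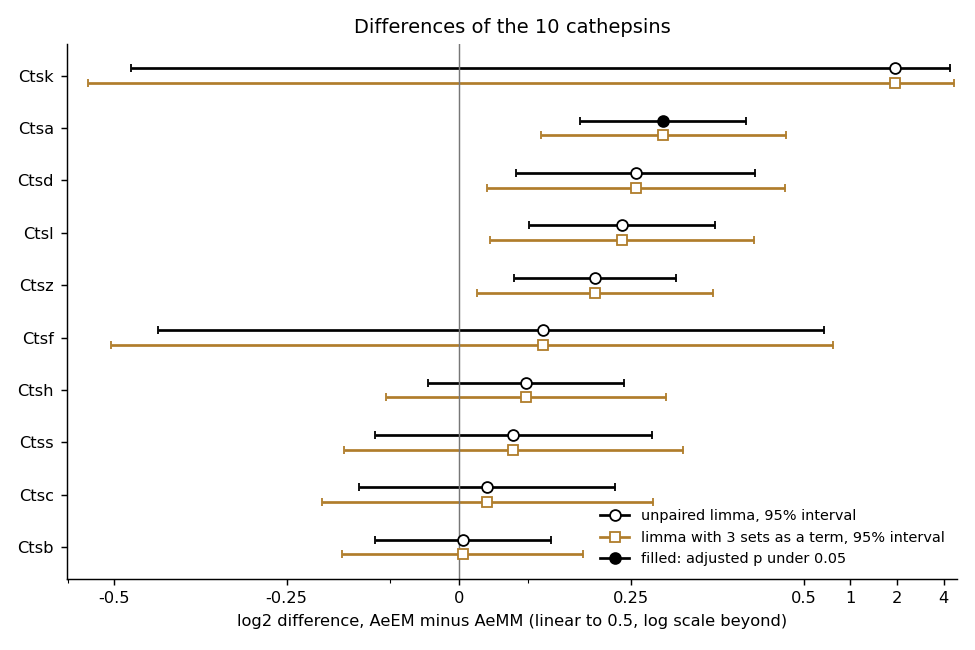
Points give the log2 difference of each cathepsin, AeEM minus AeMM, with its limma 95% interval in the unpaired (circles) and the set-adjusted (squares) fit; filled means an adjusted p under the threshold. Ctsa at 0.30 is the only filled point, and only in the unpaired fit.

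Several members carry the palindrome CACGTG near a transcript start. It is the core of the longer CLEAR element that TFEB and related factors bind in lysosomal genes. RefSeq windows of 250 bases before to 50 bases after the start (GRCm38.p6) were at hand for 8 of the 10 genes, and 4 of these held CACGTG (Ctsa, Ctsd, Ctsf and Ctsl). It was found in 7.15% of all 32851 windows and, counted per gene as for the members, in 8.09% of all genes with a window and 12.4% of those tested. TCACGTG, searched on both strands and containing CACGTG, was found for 2 of the 8 (Ctsa and Ctsd), in 3.77% of all windows, and in 4.29% of all genes with a window and 7.62% of those tested. Other lysosomal hydrolases held TCACGTG in 6 of 18 genes and the processing and sorting genes in 4 of 8. None of the 21 hydrolases and none of the 9 processing and sorting genes tested was called. The matches were chosen for display with the differences of these genes known, and a link of motif to difference was not tested. They are shown with CACGTG in capitals and the distance of its first base from the transcript start in the name.
Ctsa at -12, chr2:164833749-164833778, plus strand: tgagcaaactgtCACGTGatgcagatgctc
Ctsa at 5, chr2:164833766-164833795, plus strand: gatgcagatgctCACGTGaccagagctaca
Ctsd at -245, chr7:142388055-142388077, minus strand: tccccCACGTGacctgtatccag
Ctsd at -98, chr7:142387908-142387937, minus strand: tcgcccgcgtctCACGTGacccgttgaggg
Ctsf at -79, chr19:4855074-4855103, plus strand: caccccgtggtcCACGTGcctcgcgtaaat
Ctsl at -236, chr13:64370739-64370768, minus strand: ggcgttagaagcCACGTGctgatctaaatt
Ctsz, whose groups did not overlap, had no match in its window, and Ctsf, whose groups did, held a match. A match describes the letters only. None of the 3 tested regulators (Tfe3, Mitf and Tfec) was called, and Tfeb averaged 0.78 TPM, under the level for testing.

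Among the inhibitors, 1 of 6 tested genes was called, and it was lower in AeEM, as were 1.16% of all genes tested. Cstb, the cytoplasmic stefin B that blocks several cysteine cathepsins, had log2 values of 10.34, 10.33, 10.34 and 10.39 in AeEM, against 10.61, 10.62, 10.56 and 10.61 in AeMM. Its groups did not overlap, and the difference was -0.25 (SE 0.04, limma adjusted p = 0.0217, and 0.274 in the set-adjusted fit). The call was lost in 10 of 20 alternative settings, among them the fit without a mean-variance trend (limma adjusted p = 0.133). Cst3, the secreted cystatin C and the most abundant inhibitor at 2588 TPM, differed by 0.04 (interval -0.13 to 0.21). The summed TPM of the 8 cysteine cathepsins was 1.28 to 1.56 times that of Cst3 and Cstb in AeEM libraries and 1.20 to 1.37 times in AeMM libraries, and these ranges overlapped.

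None of the 9 tested genes for processing and sorting of cathepsins was called. Lgmn, the protease that matures several of them, differed by 0.05, and Grn, Psap and M6pr by -0.04, -0.03 and 0.15. The partners of Ctsa were also not called: Glb1 and Neu1 differed by 0.03 and 0.02, where Ctsa differed by 0.30. Of 21 other lysosomal hydrolases, none was called, 15 had a difference above 0 and the median was 0.03. None of 6 lysosomal membrane proteins was called.

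A list of genes of the MHC class II pathway, in which cathepsins trim antigen and invariant chain, held class II chains and H2-DM chains, Cd74, the thiol reductase Ifi30 and the transactivator Ciita. Of 8 tested, 7 were called higher in AeEM and none lower, against 1.25% and 1.16% of all genes tested. Of the genes of at least 200 TPM, 8.5% were called higher. The remaining gene, H2-DMa, was also above 0 (0.35, limma adjusted p = 0.131). In the set-adjusted fit 2 of the list passed, against 0.159% of all genes tested. Cd74, the invariant chain that Ctss cuts, averaged 12.62 ± 0.15 in AeEM and 11.71 ± 0.16 in AeMM (SD, n = 4 each), a difference of 0.90 (limma adjusted p = 0.00294, and 0.0385 in the set-adjusted fit); with replicate number as a block the adjusted p was 0.0696 and the call was lost. H2-Eb1, a class II beta chain, differed by 0.87 (limma adjusted p = 0.00123, 0.0288 in the set-adjusted fit and 0.0442 with the block), the only gene of the list called in all 3 fits. The others called were H2-Aa (0.63), H2-Ab1 (0.65), H2-DMb1 (0.39), Ciita (0.52) and Ifi30 (0.30), none of which passed in the set-adjusted fit (adjusted p of 0.0501 to 0.305). After quantile normalization H2-Aa differed by 0.36 and Ifi30 by 0.17, with the Ifi30 call lost (adjusted p = 0.153), and with a pseudocount of 5 TPM Ciita differed by 0.31. The sum of 7 dendritic cell markers was 44.1 to 106 TPM in AeEM and 6.29 to 13.4 TPM in AeMM. Cd209a alone was 36.0 to 96.1 TPM in AeEM and 1.95 to 8.01 TPM in AeMM. Cd209a and Itgax were called higher (adjusted p of 0.0326 and 0.115 in the set-adjusted fit). Ccr7, the other tested marker, was not called (1.48, limma adjusted p = 0.145). Flt3, Zbtb46, Xcr1 and Clec9a each averaged under 1 TPM. The part of these markers in these results, and in that of Ctsa, was not tested.

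**Figure D4:**
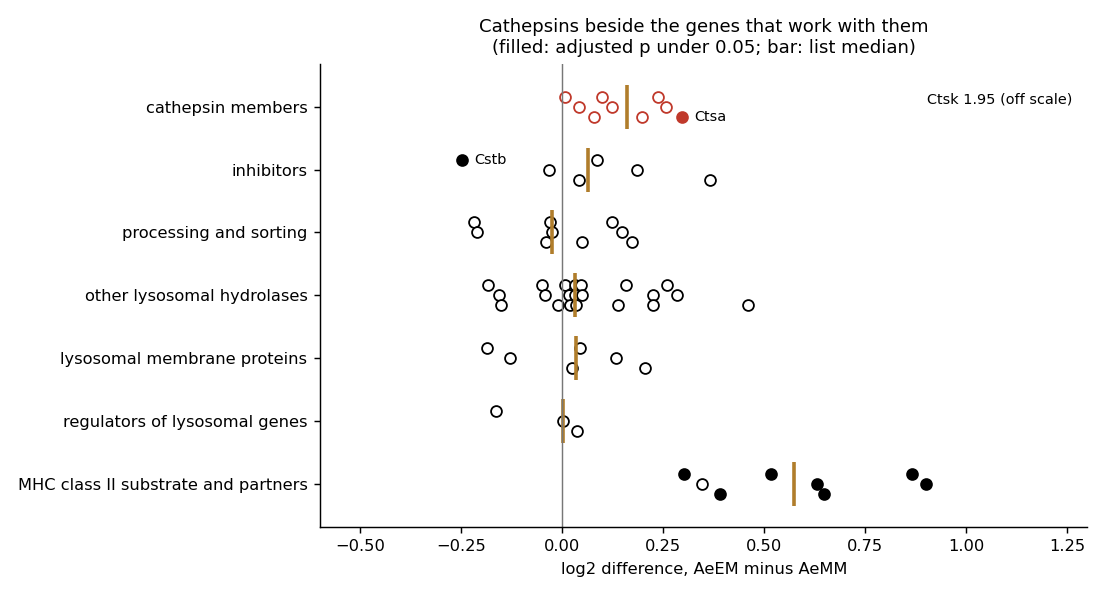
Each point is the log2 difference, AeEM minus AeMM, of a tested gene, in rows by list, filled where the limma adjusted p is under the threshold, with a bar at the list median. Ctsa is the only filled cathepsin and Cstb the only filled inhibitor, while 7 of 8 genes of the MHC class II list are filled; Ctsk, at 1.95, is off the scale.

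Prtn3, a granule protease that Ctsc activates in neutrophils and their precursors, was the only tested gene of that list and fell in AeEM. Its log2 values were 4.88, 4.72, 4.61 and 4.87 in AeEM, against 5.57, 5.79, 5.60 and 5.98 in AeMM, a difference of -0.96 (limma adjusted p = 0.00394, and 0.0605 in the set-adjusted fit). The sum of 7 neutrophil markers in the table was 21.1 to 24.0 TPM in AeEM and 35.4 to 46.6 TPM in AeMM. Most of it was S100a8 (10.5 to 12.7 TPM in AeEM, 19.8 to 28.7 TPM in AeMM) and Csf3r (7.73 to 11.0 and 11.1 to 16.3 TPM). S100a8 was called lower (adjusted p = 0.0605 in the set-adjusted fit). Csf3r (-0.53) was not called, and Mmp8 went the other way (0.58, not called). S100a9, Retnlg, Cxcr2 and Elane each averaged under 1 TPM. The part of these markers in the Prtn3 value was not tested. Outside the 10 genes, Ctso averaged 17.9 TPM and differed by -0.03. Ctsw, a cathepsin of cytotoxic lymphocytes, averaged 0.98 TPM and was not tested with the others. Without the filter its difference was -1.11 (SE 0.12, limma adjusted p = 0.0169, and 0.329 in the set-adjusted fit). The sum of 5 T and NK cell markers was 0.347 to 2.82 TPM in AeEM and 5.51 to 14.6 TPM in AeMM. Nkg7, a cytotoxic granule gene, made up most of the AeMM sum, at 0.158 to 1.70 TPM in AeEM and 3.55 to 11.0 TPM in AeMM, and was called lower (-2.41, limma adjusted p = 0.0113, and 0.0712 in the set-adjusted fit). Cd3d, Cd3e, Cd3g and Ncr1 each averaged under 1 TPM, and the list's part in the Ctsw value was not tested.

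All 8 macrophage markers passed the level for testing and none was called, with sums of 69613 to 77667 TPM in AeEM and 70822 to 85909 TPM in AeMM, nearly all of it Lyz2. The difference was below 0 for 7 of the 8, with a median of -0.20, and 4 had an unadjusted p under 0.05. Adgre1 (-0.16), Csf1r (-0.28) and Mertk (-0.26) had every AeEM library below every AeMM library, and Cd68 (0.13) had every one above. Their part in the cathepsin differences was not tested. Of the monocyte genes, Ly6c2 and Chil3 were called lower in AeEM, but not in the set-adjusted fit (adjusted p of 0.251 and 0.203). Haemoglobin genes summed to 7663 to 12737 TPM in AeEM and 4207 to 10471 TPM in AeMM, with none of 4 called. All 4 differences were above 0, with a median of 0.75, and 3 had an unadjusted limma p under 0.05. Hbb-bt (0.84) had every AeEM library above every AeMM library. The 4 B cell markers summed to 34.3 to 84.6 TPM in AeEM and 65.2 to 76.3 TPM in AeMM. Most of this was Cd79b, and none was called. The part of these genes in the cathepsin differences was not tested. The 5 fibroblast and endothelial genes were each under 1 TPM.

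The genes whose pattern over the 8 libraries was most like that of Ctsa were Fcgrt, Ifi30, Il2rg, Prr13 and Scamp3. Likeness was the root mean square distance between mean-centred log2 values, from 0.033 for Fcgrt to 0.0555 for Scamp3, among 3094 genes of at least 10 TPM. Among the other cathepsins, Ctsz ranked 18th, Ctsl 28th, Ctsd 67th and Ctsh 116th in this order. Ctsb, whose difference was 0.01, ranked 290th, Ctss 497th, Ctsc 565th and Ctsk 3093rd. The distance also grows with a gene's own spread, which was widest for Ctsk, so a late rank does not by itself mean an unlike pattern.

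**Figure D5:**
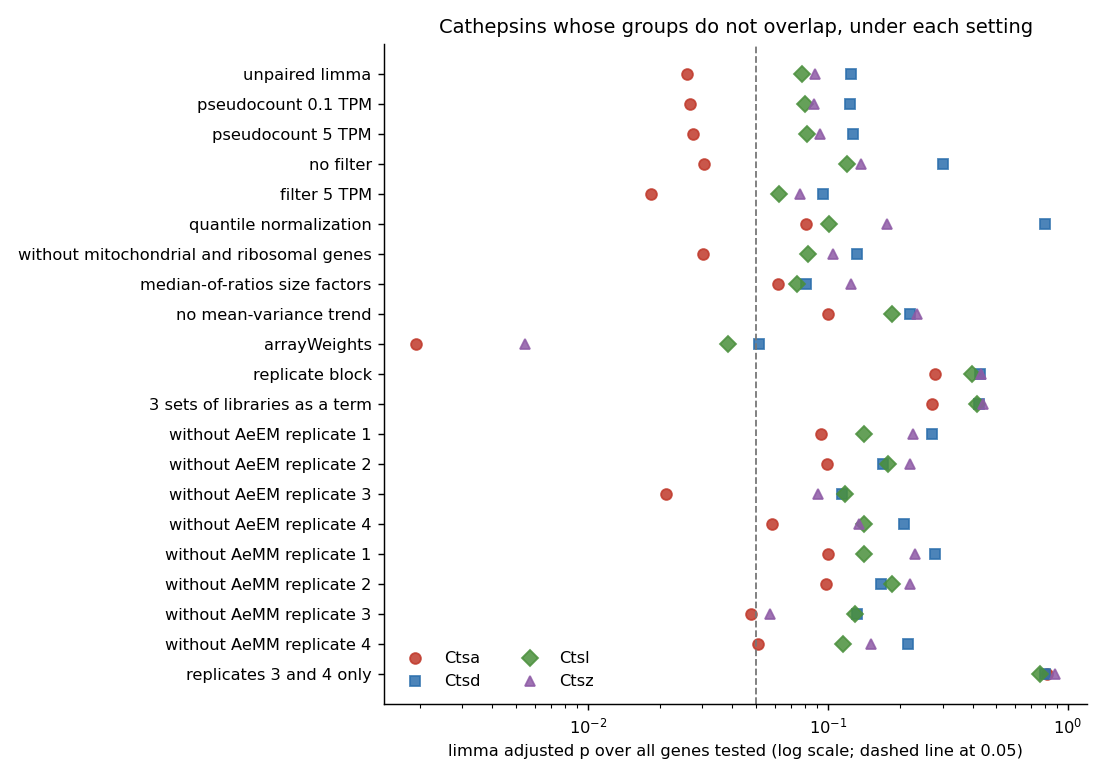
Points give the limma adjusted p, over all genes tested (log scale), of the 4 cathepsins whose groups do not overlap, under each processing setting, with a dashed line at the threshold. Ctsa lies near the line and passes it under some settings only, at 0.0259 in the unpaired fit and 0.271 in the set-adjusted fit.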

How the data were processed

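Macrophages from ascites were profiled by Smart-seq2 in 4 AeEM and 4 AeMM libraries. Per the study's methods and processing notes, reads were cleaned with fastp, aligned to mm10 with STAR 2.7.2a and counted with Subread featureCounts. The deposited values are log2(TPM + 1), adjusted between 3 sets of libraries. Both the scale and the adjustment were read from the values. The annotation and adjustment method are not given in the sources used here. Back-transformed values, with those slightly below 0 set to 0, sum to 958862 to 974303 TPM per library. Median gaps between set means were 0.00413 to 0.00939, against 0.21 between replicates 3 and 4.

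The test was unpaired limma 3.58.1 (R 4.3.3) with a trended prior variance, fitted to the 8801 genes averaging 1 TPM or more. It was two-sided, with Benjamini-Hochberg adjustment at 0.05. It was also run on simulated data, but only with changes larger than that of any cathepsin except Ctsk, so smaller changes were not checked. A fold is 2 to the power of the difference of log2(TPM + 1), and understates changes of low genes. All 10 cathepsins were named, with every called gene of each accessory list and others of the highest level. Members and lists were chosen with earlier results of these data known. Alternatives were the pseudocount, the filter, scaling, weights, the replicate block, the sets and leaving out each library. Positions are from GENCODE M21 and promoters from RefSeq.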

Additional observations from a re-analysis of the deposited data

Results flagged for a closer look

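In 50 groups of 4 libraries, covering 25 named genes, 3 held a library far from the other 3 of its group; chance gives about 1 in 20. Cstb was 10.395 in AeEM replicate 4, with the other AeEM libraries at 10.327 to 10.338. H2-Aa was 12.279 in AeMM replicate 1, with the others at 12.04 to 12.062. Lgmn was 7.918 in AeMM replicate 3, with the others at 7.751 to 7.769. No cathepsin was among them.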

How the results depend on the processing

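The difference of Ctsa stayed between 0.26 and 0.33 under all 20 alternatives, but it passed the threshold in 8 of them only. The count of cathepsins called higher was 1 in the unpaired fit and 0 under quantile normalization, median-of-ratios size factors, no mean-variance trend, the 3 sets of libraries and replicates 3 and 4 only, the last chosen after seeing the data, as was the permutation test that keeps the sets balanced. It was 3 with arrayWeights (Ctsa, Ctsl and Ctsz), and 0 to 1 when a library was left out. No cathepsin was called lower under any alternative. Over the table, 110 genes were called higher and 102 lower. These counts were 540 and 836 with arrayWeights, 9 and 5 with the 3 sets, and 0 and 0 with replicates 3 and 4 only; 58 were lower with no trend. Leaving out a library gave 39 to 110 higher and 32 to 115 lower. Ctsb turned to -0.11 under quantile normalization and -0.0058 without mitochondrial and ribosomal genes. When a library was left out, Ctsb ranged from -0.027 to 0.033, Ctsc from -0.0014 to 0.084 and Ctsf from -0.11 to 0.31. The cause of these changes was not tested. With replicate number as a block, 0 cathepsins, 3 higher and 2 lower genes were called, and the adjusted p of Ctsa was 0.279 and that of Cd74 0.0696. Whether equal numbers share a mouse is not stated, and the deviations of equal numbers correlated at -0.992 and -0.999 for replicates 1 and 2, where the adjustment imposes it, and at -0.20 and -0.13 for replicates 3 and 4. Depth is unknown, which limits Ctsk and Ctsf most.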
